A study of Mus musculus with 12 samples.

Results

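The core loop of the circadian clock was examined in the adipose tissue of C57Bl/6 mice through 8 genes: the activators Arntl (also written Bmal1), Clock and Npas2, and the repressors Per1, Per2, Per3, Cry1 and Cry2. The genes were listed by name, and all 8 were found among the 18193 genes of the array, where 20 of 45098 probe sets carried their symbols. A gene is represented by its brightest probe set, judged by the mean of the 12 arrays, and every other probe set is given beside it. RNA of each sample was hybridised to 1 single-colour Affymetrix array, with 4 arrays in each of 3 groups. Chow mice stayed on a diet that drew 13% of its calories from fat. The other groups were switched at an age of 6 weeks to a high-fat diet (HFD) with 46% of calories from fat, and were kept on it for 5 days or for 14 days. All mice were C57Bl/6, housed in groups under a 12-h cycle of light and dark with free access to food and water. The hour of collection, the fat depot, the sex and how old the chow mice were at collection are not in the labels used here. Differences in clock phase between groups therefore cannot be told apart from differences in diet, and age cannot be told apart from diet. The labels call the 4 arrays of a group replicates without naming separate animals, so each p below measures the spread between these samples.

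In mammals, ARNTL pairs with CLOCK or NPAS2, binds E-box sequences and switches on the Per and Cry genes. PER and CRY proteins then enter the nucleus together and hold back that pair until they are degraded, which closes a daily feedback loop. A second loop runs through REV-ERB repressors (Nr1d1, Nr1d2) and ROR activators, which act on ROR elements in Arntl, and D-box proteins (Dbp, Tef, Hlf) act on Per genes. Transcripts of Arntl and of the Per genes therefore peak at opposite times of day, and in fat the loop drives rhythms of lipid storage and release. In whole tissue, fewer cells of a type and less RNA per cell cannot be told apart.

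The start regions of the members are shown because these 3 kinds of element link the members to each other. RefSeq windows on GRCm38.p6, from 250 bases before to 50 bases after an annotated start, were found for 7 members, in 11 windows. They were searched on both strands for the E-box CACGTG, the E-prime box CACGTT, the D-box TTANGTAA and the ROR element TAGGTCA. These 4 do not overlap in the windows shown. Capitals mark the matches, on whichever strand they lie, and positions are counted from the annotated start, negative upstream.
Arntl, chr7:113207261-113207560, plus strand: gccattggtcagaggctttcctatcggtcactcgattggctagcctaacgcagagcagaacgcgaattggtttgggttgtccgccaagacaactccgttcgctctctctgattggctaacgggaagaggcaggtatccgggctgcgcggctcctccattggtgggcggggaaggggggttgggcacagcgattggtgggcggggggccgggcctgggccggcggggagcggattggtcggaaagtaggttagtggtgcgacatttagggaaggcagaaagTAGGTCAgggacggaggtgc
Per1, chr11:69098699-69098998, plus strand: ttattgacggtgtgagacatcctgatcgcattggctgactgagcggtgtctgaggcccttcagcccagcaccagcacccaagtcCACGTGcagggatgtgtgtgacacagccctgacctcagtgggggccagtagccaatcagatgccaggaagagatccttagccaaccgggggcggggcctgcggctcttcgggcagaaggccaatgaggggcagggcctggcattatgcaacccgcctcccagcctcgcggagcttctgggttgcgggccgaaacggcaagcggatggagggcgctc
Per3, chr4:151044616-151044915, minus strand: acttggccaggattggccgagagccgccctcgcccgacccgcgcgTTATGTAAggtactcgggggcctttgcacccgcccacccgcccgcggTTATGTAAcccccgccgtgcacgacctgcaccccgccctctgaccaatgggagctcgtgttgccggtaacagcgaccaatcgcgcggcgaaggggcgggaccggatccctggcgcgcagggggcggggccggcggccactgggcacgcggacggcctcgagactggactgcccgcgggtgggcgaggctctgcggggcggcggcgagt
Cry1, chr10:85185005-85185304, minus strand: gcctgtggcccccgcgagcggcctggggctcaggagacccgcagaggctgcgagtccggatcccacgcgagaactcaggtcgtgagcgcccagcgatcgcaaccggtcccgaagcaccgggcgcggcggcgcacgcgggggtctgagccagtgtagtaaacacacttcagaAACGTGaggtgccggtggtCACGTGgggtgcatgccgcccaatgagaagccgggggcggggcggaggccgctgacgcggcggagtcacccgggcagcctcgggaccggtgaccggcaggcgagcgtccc
Cry2, chr2:92434020-92434319, minus strand: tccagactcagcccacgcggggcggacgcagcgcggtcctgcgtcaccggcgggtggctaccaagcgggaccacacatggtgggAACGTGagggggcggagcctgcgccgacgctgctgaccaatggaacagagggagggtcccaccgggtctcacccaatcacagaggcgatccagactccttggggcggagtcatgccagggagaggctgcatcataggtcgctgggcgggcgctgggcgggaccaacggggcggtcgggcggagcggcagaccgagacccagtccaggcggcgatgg
The Arntl window shown held 1 ROR element, beginning at position 30, and 2.61% of all 32851 windows of this length held that element. Both Per3 matches were D-boxes, at -205 and -158, an element held by 2.32% of all windows. An E-box stood at -166 in this Per1 window and at -60 in Cry1, against 7.15% of all windows with at least 1. The E-prime box was at -79 in Cry1 and at -166 in Cry2, and 4.68% of all windows held it. A match describes the letters and not binding. The windows of Clock and Npas2, and the windows of Arntl and Per1 that are not shown, held none of the 4.

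Adipocyte markers were abundant on every array, as the tissue label implies. All 9 of those measured, among them Adipoq and Lpl, passed the signal filter, and their mean level lay between 13.86 and 14.28 log2 units on the 12 arrays. Array medians ran from 8.09 to 8.14, and correlations between pairs of arrays from 0.956 to 0.997. Transcripts of other tissues differed between arrays. The mean of 6 epididymis and testis markers was 10.52, 10.72 and 11.22 on 5-day arrays 1 to 3, 11.96 on 14-day array 4 and 7.52 on 5-day array 4, against 7.66 to 8.46 on chow arrays. The most abundant of them, Spink8, reached 14.96 on 14-day array 4, while Gpx5 stayed between 7.82 and 8.52 on all 12. On 5-day array 4, the 3′ probe set of the pyruvate carboxylase control exceeded the 5′ one by 2.83. This excess was 1.59 to 1.94 on the other 5-day arrays, 1.70 to 1.91 on chow arrays and 1.72 to 2.18 on 14-day arrays. No other control was highest on 5-day array 4. Its excess for the transferrin receptor control (1.55) was the lowest of the 12 arrays. For Gapdh (0.27) and actin (0.50) it was below that of 14-day array 2 (0.28 and 0.55). The mean of 9 liver markers was 13.30 on 5-day array 4, against 8.75 to 12.27 on chow arrays. Skeletal muscle markers were highest on chow array 3 (12.86) and 5-day array 2 (12.58), and 14-day array 4 had the highest smooth muscle mean (13.62) and the lowest macrophage mean (9.78). Some other marker lists differed along the diet groups. The mean of 8 mesothelium markers was 9.80 to 10.44 on 5-day arrays, against 10.57 to 10.88 on chow arrays. Of the 8, 5 were lower at an unadjusted p under 0.05, where 5.67% of all genes were. The mean of 7 progenitor markers was 11.33 to 11.83 on 14-day arrays, against 12.03 to 12.17 on chow arrays. At 14 days 4 of the 7 were lower at that p, as were 8 of 12 macrophage markers and again 5 of the 8 mesothelium markers, where 4.3% of all genes were. The macrophage mean on 14-day array 3 (11.02) lay inside the chow range (11.00 to 11.26). None of these markers passed after adjustment. The part of these features in the clock results was not tested beyond the values given without those arrays and with marker covariates.

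No member passed an adjusted p under 0.05 in any comparison. With limma over 13311 genes, 0 genes in all were called in each of the 3 comparisons (percent called 0 in each), while 1345, 1061 and 340 had an unadjusted p under 0.05 in the comparison of 5-day with chow arrays, of 14-day with chow arrays and of 14-day with 5-day arrays. Of the members, 6 were tested, because Npas2 and Cry1 lay under the filter, set at 7.64 log2 units, the 40th percentile over probe sets. Their values come from the same fit without a filter. At 5 days, 1 of the 6 was higher (Clock) and 1 lower (Per2) than chow at an unadjusted p under 0.05, where 10.1% of all genes passed, 4.43% higher and 5.67% lower. At 14 days the same count was 1 higher (Clock) and 1 lower (Per2), where 7.97% of all genes passed, 3.67% higher and 4.3% lower. None of the 6 passed between 14 and 5 days, where 2.55% of all genes did, and 0 of the 6 separated in array ranges, where 0.924% of all genes did. Against chow in array ranges, 0 of the 6 members separated at 5 days, where 11.3% of all genes did. At 14 days 2 of the 6 separated, Clock above and Per2 below chow, where 4.63% of all genes did, 2.37% above and 2.26% below. The median difference of the 6 members was -0.076 at 5 days and -0.067 at 14 days against chow, beside -0.0015 and 0.016 over all genes tested. Both comparisons use the same 4 chow arrays.

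**Figure D1:**
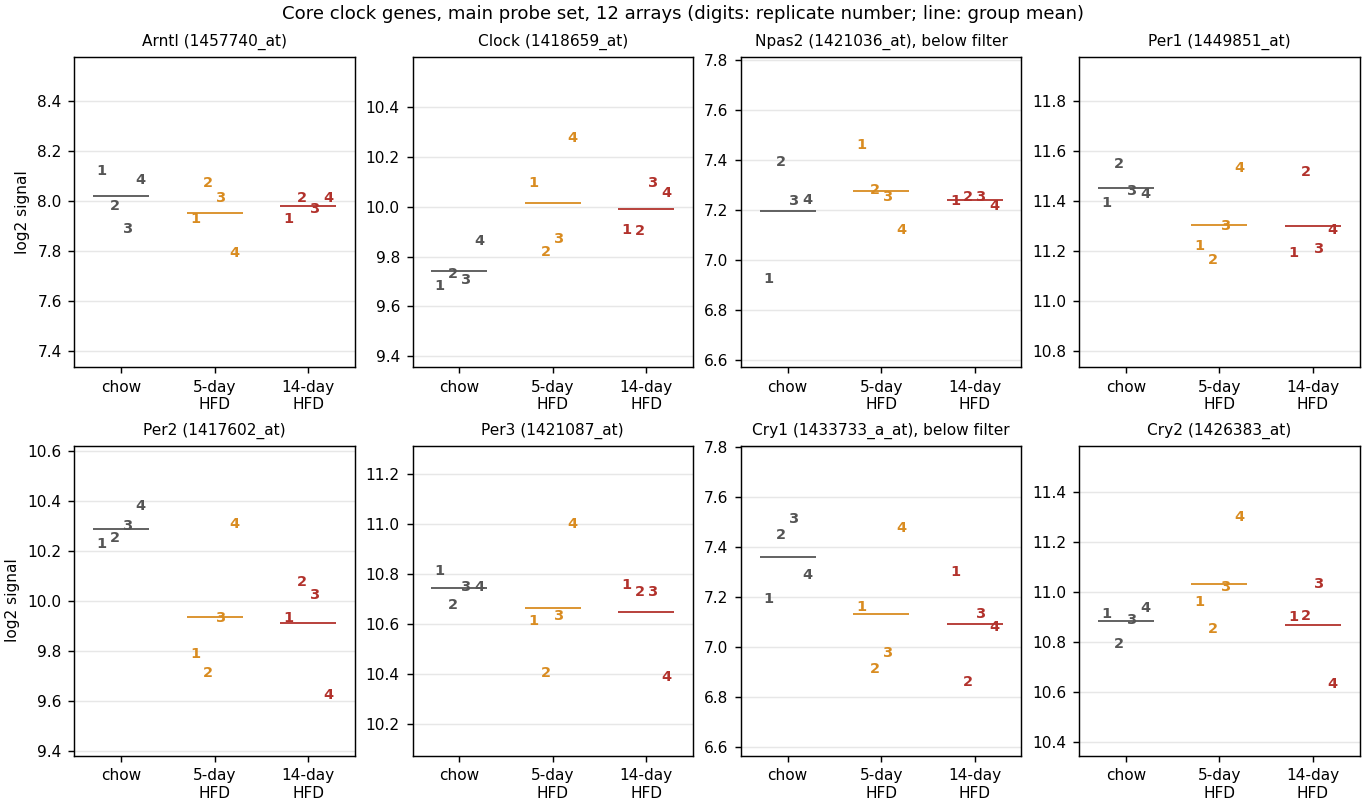
Log2 signal of the main probe set of each of the 8 members on every array, drawn as its replicate number, with a line at the group mean, for chow, 5 days and 14 days of HFD. Per2 was 9.62 to 10.08 on 14-day arrays, below the chow arrays at 10.23 to 10.38, and 5-day array 4 lay apart from the other 5-day arrays for Per2 and Per3.

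Among the activators, Clock was the only one of the 3 whose 14-day arrays all lay above chow on the main probe set. Clock encodes the partner of ARNTL, a protein that also acetylates histones. Its signal was 9.68, 9.73, 9.70 and 9.86 on chow arrays, 10.09, 9.82, 9.87 and 10.27 on 5-day arrays, and 9.91, 9.90, 10.10 and 10.05 on 14-day arrays. The lowest 14-day array (9.90) was above the highest chow array (9.86), and 5-day array 2 lay inside the chow range. Clock differed by 0.27 ± 0.098 (SE) at 5 days against chow, which is 1.21-fold with a 95% interval of 1.04 to 1.40 (limma, unadjusted p = 0.0184, adjusted p = 0.395). At 14 days against chow it differed by 0.25 ± 0.098, or 1.19-fold with an interval of 1.02 to 1.38 (limma, unadjusted p = 0.0288, adjusted p = 0.58). Without 5-day array 4, the highest Clock value of all 12, the 5-day difference was 0.18. The 14-day difference was 0.13 with 3 tissue marker means (epididymis and testis, liver, skeletal muscle) as covariates, and also 0.13 when the Clock probe sets were averaged.

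All 4 Clock probe sets had a positive difference from chow at both times. At 5 days they ran from 0.21 to 0.31, and at 14 days from 0.00275 to 0.25. Only the main set 1418659_at separated from chow at 14 days. Sets 1418660_at, 1435775_at and 1439314_at overlapped chow. Their lowest 14-day values were 9.32, 8.70 and 8.38, against highest chow values of 9.39, 8.71 and 9.00. Probe set 1435775_at read 8.84, 8.75, 8.75 and 9.44 on 5-day arrays, against 8.56, 8.71, 8.58 and 8.68 on chow arrays. Those ranges did not overlap, as was true of 5.67% of all 22956 probe sets in that direction, and the difference was 0.31 ± 0.13 (limma, unadjusted p = 0.038). On 5-day array 4 this set and 1418660_at (10.01) stood far above the other 3 arrays of the group. Across the 12 arrays, pairs of Clock probe sets correlated at r from 0.52 to 0.96.

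Arntl, the indispensable activator of the loop, differed little between the groups on either of its probe sets. Its main set 1457740_at read 8.12, 7.98, 7.89 and 8.08 on chow arrays, 7.93, 8.07, 8.01 and 7.79 on 5-day arrays, and 7.93, 8.01, 7.97 and 8.01 on 14-day arrays. The 3 groups overlapped throughout. The difference from chow was -0.068 ± 0.072 at 5 days, a fold of 0.954 with an interval of 0.855 to 1.06 (limma, adjusted p = 0.791), and -0.039 at 14 days, a fold of 0.973 with an interval of 0.872 to 1.09. The second set, 1425099_a_at, lay under the filter and differed by 0.088 and -0.074. Between these probe sets the correlation over 12 arrays was -0.024, so they did not order the arrays alike.

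Npas2, a close relative of Clock that can take its place beside ARNTL, was below the filter on both of its probe sets. The brighter one, 1421036_at, read 6.93, 7.40, 7.24 and 7.24 on chow arrays, 7.46, 7.28, 7.26 and 7.12 on 5-day arrays, and 7.24, 7.25, 7.25 and 7.22 on 14-day arrays. These ranges overlapped, with differences from chow of 0.080 ± 0.096 at 5 days and 0.042 at 14 days. The other set, 1421037_at, differed by -0.23 at 5 days, opposite in sign to the first.

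Per2 was the member with the lowest HFD values relative to chow among the tested ones. PER2 joins CRY proteins in the repressor complex, and glucocorticoids can induce its gene in mouse tissues. The main set 1417602_at read 10.23, 10.25, 10.30 and 10.38 on chow arrays, 9.79, 9.71, 9.93 and 10.31 on 5-day arrays, and 9.93, 10.08, 10.02 and 9.62 on 14-day arrays. All 14-day arrays lay below all chow arrays, and at 5 days 3 of 4 did, with array 4 inside the chow range. The share of all genes with 3 of 4 arrays so placed was not counted. Per2 differed by -0.35 ± 0.13 at 5 days against chow, a fold of 0.782 with an interval of 0.641 to 0.955 (limma, unadjusted p = 0.0203, adjusted p = 0.406). At 14 days it differed by -0.38 ± 0.13, a fold of 0.770 with an interval of 0.631 to 0.941 (limma, unadjusted p = 0.015, adjusted p = 0.571). Without 5-day array 4 the 5-day difference was -0.48, and without 14-day array 4 the 14-day difference was -0.28. With the epididymis and testis marker mean as a covariate, the 5-day difference was -0.13, and with the 3 tissue covariates it was -0.20. Leaving out both HFD arrays numbered 4, a choice made after seeing the data, gave -0.48 at 5 days (limma, adjusted p = 0.00259), past the threshold. That fit called 881 of 13311 genes at 5 days. The 5-day arrays left in it are those with high epididymis and testis markers (10.52 to 11.22, against 7.66 to 8.46 on chow arrays).

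A second Per2 probe set, 1417603_at, separated the groups more widely relative to its spread. It averaged 8.64 ± 0.056 on 5-day arrays and 8.55 ± 0.085 on 14-day arrays, against 8.95 ± 0.074 on chow arrays (SD, n = 4 each). Single values were 8.94, 9.00, 9.01 and 8.85 on chow arrays, 8.63, 8.64, 8.71 and 8.57 on 5-day arrays, and 8.47, 8.67, 8.56 and 8.52 on 14-day arrays. No HFD array reached the lowest chow array, while 5.01% of all probe sets at 5 days and 2.63% at 14 days were separated in this direction. On 5-day array 4 this set was the lowest of its group (8.57), where the main set was the highest of its group (10.31). The difference was -0.31 ± 0.061 at 5 days, the 27th smallest p of 22956 probe sets (limma, unadjusted p = 0.000314, adjusted p = 0.244). At 14 days it was -0.40 ± 0.061, the 3rd smallest p (limma, unadjusted p = 3.98e-05, adjusted p = 0.29). This set was singled out after its values were seen. Leaving out 1 array at a time kept its difference between -0.35 and -0.29 at 5 days and between -0.44 and -0.37 at 14 days. With the 3 tissue covariates it was -0.21 at 5 days (limma, adjusted p = 0.735) and -0.29 at 14 days, neither past the threshold.

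The third Per2 set, 1457350_at, gave -0.13 at 5 days and -0.24 at 14 days, and overlapped chow at 5 days through array 4 (9.67) and at 14 days through array 2 (9.34). Over the 12 arrays the 3 Per2 sets correlated pairwise at r from 0.42 to 0.87.

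**Figure D2:**
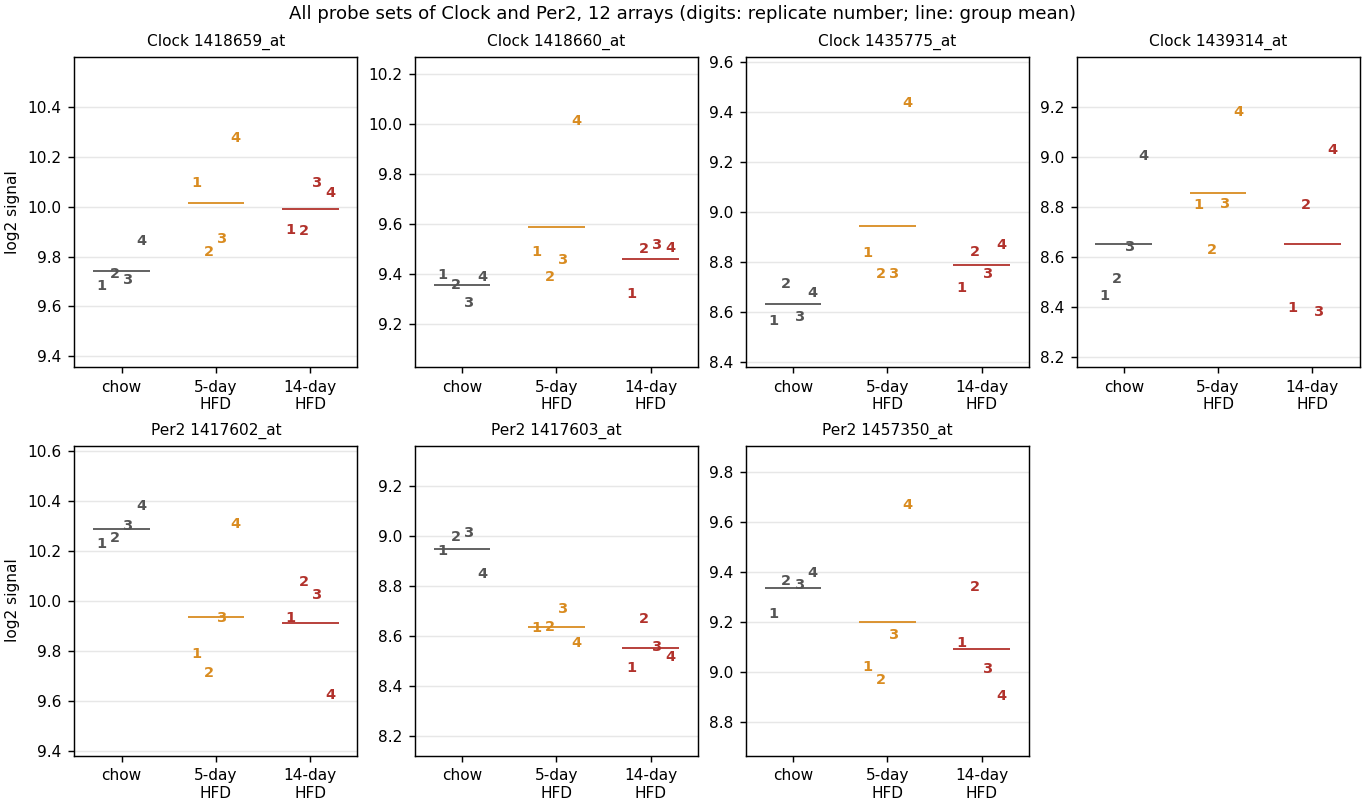
Log2 signal of all 4 Clock and all 3 Per2 probe sets on every array, drawn as its replicate number, with a line at the group mean. Per2 1417603_at was at most 8.71 on HFD arrays and at least 8.85 on chow arrays, and 5-day array 4 was the highest of its group on each Clock set and the lowest on Per2 1417603_at.

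Per1, a Per gene that also answers to acute signals such as glucocorticoids, has 1 probe set. Its signal was 11.39, 11.55, 11.44 and 11.43 on chow arrays, 11.22, 11.16, 11.30 and 11.53 on 5-day arrays, and 11.19, 11.52, 11.21 and 11.28 on 14-day arrays. At each time on the diet, 3 of 4 HFD arrays lay below every chow array, and 1 lay inside the chow range, array 4 at 5 days and array 2 at 14 days. How many of all genes did the same was not counted. The difference from chow was -0.15 ± 0.093 at both times, with folds of 0.903 and 0.900 (limma, adjusted p = 0.621 and 0.719). It was -0.22 at 5 days without 5-day array 4 and -0.078 with the epididymis and testis covariate. With the 3 tissue covariates it was 0.011 at 5 days and -0.054 at 14 days. With array weights it was -0.24 at 14 days (limma, adjusted p = 0.0179), in a fit that called 2979 of 13311 genes, against 0 without weights.

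Per3, the Per gene least needed for rhythm in mice, has 6 probe sets. The main one, 1421087_at, read 10.81, 10.68, 10.75 and 10.75 on chow arrays, 10.61, 10.40, 10.63 and 11.00 on 5-day arrays, and 10.76, 10.73, 10.73 and 10.39 on 14-day arrays. Array 4 of the 5-day group was the highest of all 12 and array 4 of the 14-day group the lowest. The differences from chow were -0.084 ± 0.12 at 5 days and -0.096 ± 0.12 at 14 days. Without 5-day array 4 the 5-day value was -0.20, and without 14-day array 4 the 14-day value was -0.0085.

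Of the 6 Per3 sets, 5 had a negative difference from chow at 5 days and 5 at 14 days. At 5 days 1441445_at differed by -0.16. At 14 days 1460662_at lay below chow on every array, by -0.12 (limma, unadjusted p = 0.149), in the direction in which 2.63% of all probe sets separated. Correlations between pairs of Per3 sets ran from -0.15 to 0.86, so the 6 sets did not all track 1 quantity.

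The Cry genes encode the repressors that bind the ARNTL-CLOCK pair directly. Cry1 was under the filter and read 7.19, 7.45, 7.51 and 7.28 on chow arrays, 7.16, 6.91, 6.98 and 7.48 on 5-day arrays, and 7.30, 6.86, 7.13 and 7.08 on 14-day arrays. HFD arrays 1 to 3 at 5 days and 2 to 4 at 14 days lay below all chow arrays, and 1 array of each group overlapped chow. The share of all genes with such a partial separation was not counted. Cry1 differed from chow by -0.23 ± 0.13 at 5 days and -0.27 ± 0.13 at 14 days, with folds of 0.853 and 0.831 and intervals of 0.699 to 1.04 and 0.681 to 1.01 (limma without a filter, adjusted p = 0.609 and 0.734). At 5 days the difference was -0.34 without 5-day array 4, -0.11 with the epididymis and testis covariate and -0.39 with the 3 tissue covariates. At 14 days it was -0.45 with the 3 tissue covariates and -0.17 with array weights.

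Cry2 read 10.91, 10.79, 10.89 and 10.94 on chow arrays, 10.96, 10.85, 11.02 and 11.30 on 5-day arrays, and 10.90, 10.90, 11.03 and 10.63 on 14-day arrays. The 14-day group held the lowest value and the 5-day group the highest of the 12, both on arrays numbered 4. The difference from chow was 0.15 ± 0.10 at 5 days (limma, adjusted p = 0.653) and -0.015 ± 0.10 at 14 days. The 5-day value was 0.062 without 5-day array 4, and the 14-day value was 0.064 without 14-day array 4. With the epididymis and testis marker mean as a covariate the 5-day difference was 0.32 and passed (limma, adjusted p = 0.0414). That fit called 517 of 13311 genes at 5 days, against 0 without the covariate.

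Between 14 and 5 days of HFD, the 8 members differed by -0.17 (Cry2) to 0.029 (Arntl). Adjusted p was 0.999 for each of them, and no group pair separated. For Per2 the difference was -0.022 with a 95% interval of -0.31 to 0.27 on the log2 scale, and for Clock -0.025 with an interval of -0.24 to 0.19.

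**Figure D3:**
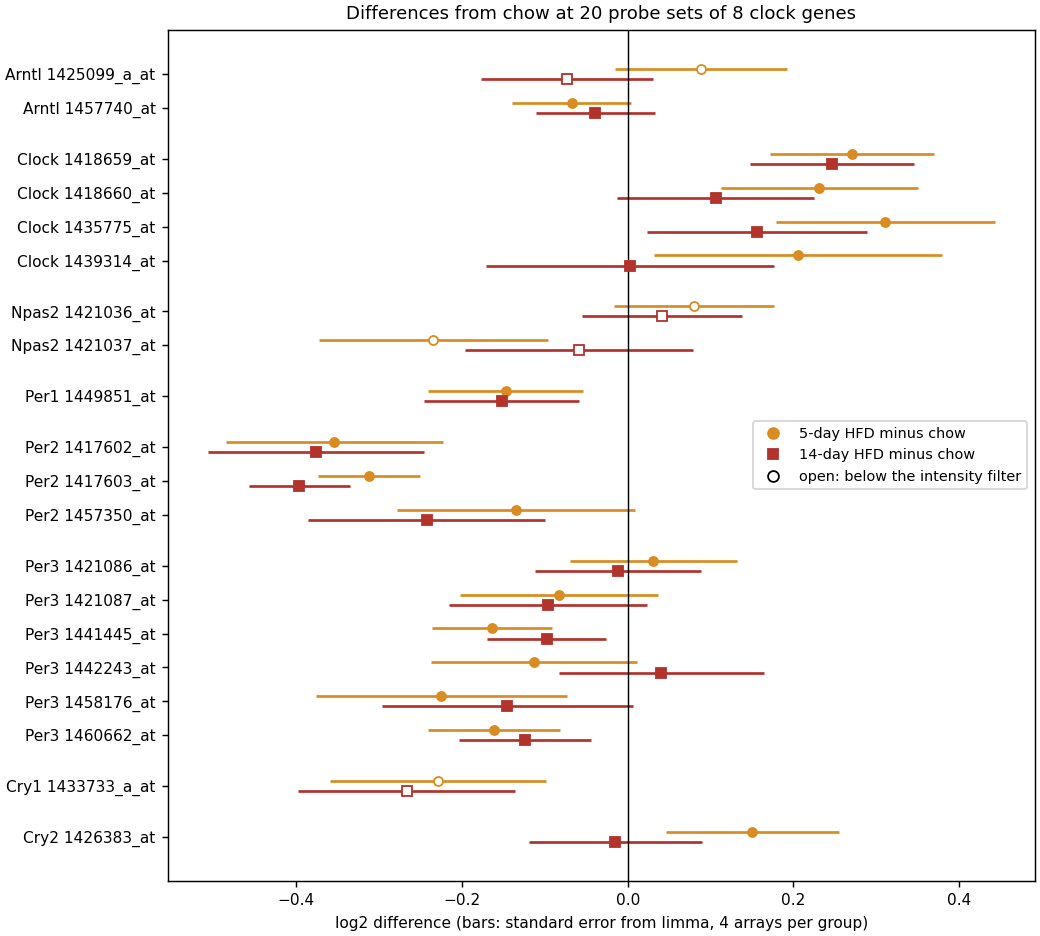
Log2 difference from chow at 5 days (circles) and 14 days (squares) of HFD for all 20 probe sets of the 8 members, with standard errors from limma as bars and open symbols for sets below the filter. All 4 Clock sets lie above 0 and all 3 Per2 sets below 0 at both times, and Per3 sets lie between -0.23 and 0.041.

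The highest correlations between members were those between repressors. Over the 12 arrays, described without a test, r was 0.81 between Per2 and Per3, 0.76 between Per1 and Per2, 0.75 between Per3 and Cry2 and 0.65 between Per2 and Cry1. Arntl and Clock correlated at -0.58. All points share the 12 libraries, so an array with an unusual makeup enters every pair.

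The factors that act on D-boxes and ROR elements were read on the same arrays. Dbp, Tef, Hlf, Nr1d1 and Nr1d2 were 5 of 5 lower at 5 days against chow, with a median of -0.29, and 5 of 5 higher at 14 days against 5 days, with a median of 0.34, beside medians over all genes of -0.0015 and 0.012. Dbp was 12.01, 12.06, 12.32 and 12.01 on 5-day arrays and 12.61, 12.58, 12.76 and 12.40 on 14-day arrays, against 12.67, 12.74, 12.60 and 12.29 on chow arrays, a difference of -0.47 ± 0.11 at 5 days and 0.014 at 14 days. Per2 stayed at -0.35 and -0.38 at these times, and whether its course differs from that of Dbp was not tested.

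Among other parts of the loop, 6 of 8 genes on the array passed the filter, 3 higher and 3 lower at 5 days, and 1 higher and 5 lower at 14 days. Bhlhe40, which encodes a repressor that competes for E-boxes, was 10.01, 9.98, 10.21 and 9.66 on 5-day arrays, against 10.34, 10.65, 10.26 and 10.29 on chow arrays, a difference of -0.42 (limma, unadjusted p = 0.0205). Ciart, which encodes a further repressor of the CLOCK pair, differed by -0.31 at 5 days against chow (unadjusted p = 0.0222) and by 0.41 at 14 against 5 days (unadjusted p = 0.0043). Rora, an activator at ROR elements, differed by -0.22 and -0.066 from chow, with all groups overlapping.

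Enzymes that modify clock proteins formed a further list, with kinases, ubiquitin ligases, a phosphatase and a deacetylase. All 11 tested were lower at 5 days against chow, as were 6709 of all 13311 genes, with a median of -0.050 and the lowest value at Prkaa1 (-0.30), which encodes a subunit of AMP-activated kinase, and at 14 days 5 were higher and 6 lower, with a median of -0.018. Csnk1a1, which encodes a casein kinase acting on PER, differed by -0.11 at 5 days (limma, unadjusted p = 0.0459) without overlap, where 10.1% of all genes passed that p and 11.3% did not overlap. Csnk1e, its relative, differed by -0.15 at 14 days without overlap, as did 2.26% of all genes in that direction. Of 7 E-box and clock target genes tested, 4 were higher and 3 lower at 5 days. Usp2, which encodes a deubiquitinase with a strong daily rhythm, was 10.57, 10.69, 10.79 and 10.51 on 5-day arrays, against 10.87, 10.89, 11.20 and 11.06 on chow arrays, a difference of -0.37 (unadjusted p = 0.0031). None of these genes passed after adjustment over all genes.

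The arrays were also ordered along an index of the members themselves, the mean deviation of Arntl, Clock and Npas2 from their 12-array means minus that of Per1, Per2 and Per3. High values mean more activator and less Per signal on average, not for each gene. Npas2 lay below the filter, and Arntl differed from chow by -0.068 at 5 days and -0.039 at 14 days, opposite in sign to Clock. With no hour of collection the index is an order and not a time. It was -0.25, -0.14, -0.24 and -0.14 on chow arrays, 0.27, 0.28, 0.072 and -0.24 on 5-day arrays, and 0.048, -0.070, 0.10 and 0.31 on 14-day arrays. All 14-day arrays and 5-day arrays 1 to 3 lay above all chow arrays, and 5-day array 4 stood among chow arrays. With quantile normalization or with averaged probe sets that array also lay above all chow arrays, at -0.138 against a chow maximum of -0.140, and at -0.091 against -0.094. Group means were -0.19 ± 0.060 for chow, 0.096 ± 0.24 at 5 days and 0.098 ± 0.16 at 14 days (SD, n = 4 each).

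Most of that spacing came from the Per genes. Among them Per2 differed most from chow (-0.35 at 5 days and -0.38 at 14 days) and Per3 least (-0.084 and -0.096). The index reuses the member values given above and is no separate support for them. The mean deviation of the Per genes was 0.13 ± 0.017 on chow arrays, -0.061 ± 0.22 on 5-day arrays and -0.074 ± 0.14 on 14-day arrays (SD, n = 4 each). The spread of the chow group was the smallest, with single values from 0.12 to 0.16, against -0.27 to 0.25 at 5 days and -0.26 to 0.079 at 14 days. The activators' mean deviation was -0.059 on chow arrays, 0.035 on 5-day arrays and 0.024 on 14-day arrays, with all groups overlapping.

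The order depended on which genes entered the index. With Dbp, Tef, Hlf, Nr1d1 and Nr1d2 in place of the Per genes, all 5-day arrays, array 4 included (0.20), lay above all chow and all 14-day arrays, and the 14-day arrays overlapped chow. With Arntl minus Per3 alone, which also leaves out Clock and Npas2, the 3 groups overlapped, and 5-day array 4 was the lowest of the 12 at -0.51. Both alternatives left 6 and 5 of the 12 arrays within 1 rank of their place in the main order.

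**Figure D4:**
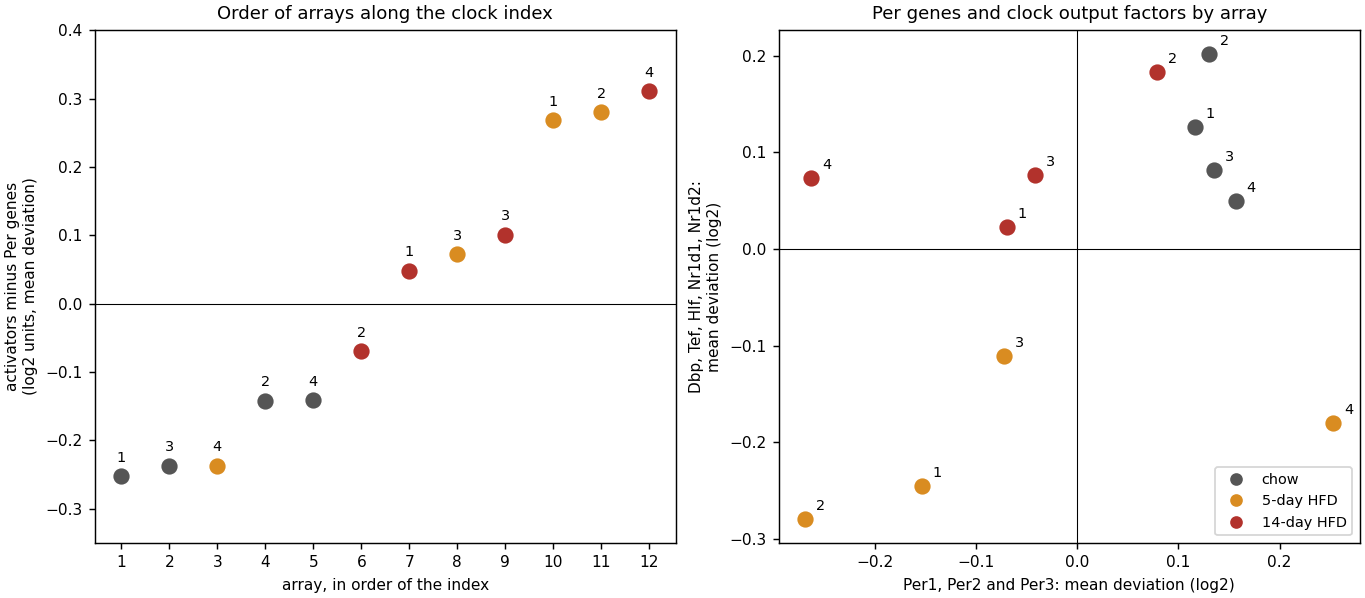
Left, the index of activators minus Per genes (log2 units) against the rank of each of the 12 arrays; right, the mean deviation of the Per genes (x axis) against that of the 5 output genes (y axis), both in log2 units, with points numbered by replicate and coloured by group. Chow arrays sit between -0.25 and -0.14 on the index, 14-day arrays between -0.070 and 0.31, and 5-day array 4 at -0.24 among the chow arrays.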

How the data were processed

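The authors deposited 1 table of log2 signals for 45098 probe sets and 12 arrays. The log2 unit was judged from the values (4.18 to 15.50, near-equal array medians), and the authors' summary and normalization are not given in the sources used here. Per the labels' protocols, biotin-labelled RNA was hybridised to single-colour arrays. Nothing was renormalized. Arrays give no counts, so their number limits precision. Of the probe sets, 34945 carried 1 gene symbol, 932 several (not used), 9160 none and 61 were controls.

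Each gene was represented by its brightest probe set, dim genes (mean under the 40th percentile) were left out, and 1 model of all groups was fitted with limma 3.58.1 (lmFit, eBayes with trend) in R 4.3.3. Tests were two-sided with Benjamini-Hochberg adjustment over 13311 genes, and single probe sets over 22956. The procedure was tested on simulated data. Named genes were all members with every probe set, the 5 output genes, and up to 4 members of smallest p per clock list (up to 3 in other lists). Rora, Csnk1e, Klf9, Spink8 and Gpx5 are named beyond that, after their values were seen. The members and lists were chosen with earlier results of these data known. Promoter windows are from RefSeq (GRCm38.p6), and no Per2 window was used. Alternatives are given in the closing section. Leaving out both HFD arrays numbered 4, and the index from mean probe sets, were chosen after seeing the data.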

Additional observations from a re-analysis of the deposited data

Results flagged for a closer look

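Of 78 sets of 4 arrays examined (in each group, the 20 probe sets of the members, the 5 output genes and the index), 7 held an array lying far from the other 3, and chance gives about 1 in 20. On 5-day array 4, Clock probe set 1418660_at read 10.01, against 9.39 to 9.49 on the other 5-day arrays, and Clock probe set 1435775_at read 9.44, against 8.75 to 8.84. On 14-day array 1, Clock 1418660_at read 9.32, against 9.50 to 9.52. The main Per3 set read 10.39 on 14-day array 4, against 10.73 to 10.76, and Per3 1442243_at read 9.30 on 14-day array 2, against 8.99 to 9.01. On chow array 1, Per3 1460662_at read 8.38, against 8.21 to 8.22. Nr1d1 read 11.38 on chow array 2, against 10.94 to 10.96.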

How the results depend on the processing

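Of 681 alternative values of member differences (Per2 set 1417603_at counted beside the 8 main sets), 622 kept direction and side of the threshold, 13 crossed to a call in the same direction and 46 turned sign, 30 of them between 14 and 5 days. Genes called, 0 as reported, became 2015, 2979 and 2212 at 5 days, at 14 days and at 14 against 5 days with array weights, 213 at 5 days in a fit of only those groups, 517 and 40 at 5 days and at 14 against 5 days with the epididymis and testis covariate, and 881, 1 and 723 without both HFD arrays numbered 4. Leaving out 1 array gave 0 to 123 genes at 5 days (most without 14-day array 4), 0 to 20 at 14 days (most without 14-day array 2) and 0 between HFD times, with 0 members throughout. Members called, 0 as reported, became 3 at 5 days (Clock, Per1, Per2) and 2 at 14 days (Per1, Per2) with array weights, 1 at 5 days with the epididymis and testis covariate (Cry2), and 1 at 5 days without both HFD arrays numbered 4 (Per2). Per2 set 1417603_at passed at 5 days with array weights (adjusted p = 0.00434), in a fit of only those groups (0.0468), with the epididymis and testis covariate (0.0405) and without both HFD arrays numbered 4 (0.0283), and at 14 days with array weights (0.00478) and without 14-day array 2 (0.0432), by limma.

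Signs turned as follows. Median-centred arrays gave Cry2 0.00025 at 14 days. Averaging all probe sets of a gene gave Arntl 0.010 and Npas2 -0.077 at 5 days, Npas2 -0.0088 at 14 days, and Arntl -0.066, Npas2 0.069 and Per3 0.047 at 14 against 5 days. Array weights gave Per3 0.0030 and Cry2 0.049 at 14 days, and Arntl -0.018, Per2 0.13, Per3 0.14 and Cry1 0.12 at 14 against 5 days. The epididymis and testis covariate gave Per3 0.12 at 5 days and Cry2 0.062 at 14 days, and 3 tissue covariates gave Per1 0.011 and Per3 0.047 at 5 days. Without both HFD arrays numbered 4, Cry2 was 0.064 at 14 days, and Arntl -0.035, Clock 0.041, Per1 0.076, Per2 0.20, Per3 0.19, Cry1 0.082 and Cry2 0.0023 at 14 against 5 days. The cause was not tested. Leaving out 1 array gave ranges across 0 for Npas2 (-0.011 to 0.15) and Per3 (-0.20 to 0.0028) at 5 days, Npas2 (-0.050 to 0.11) and Cry2 (-0.069 to 0.064) at 14 days, and, at 14 against 5 days, Arntl (-0.025 to 0.070), Clock (-0.089 to 0.062), Npas2 (-0.092 to 0.022), Per1 (-0.078 to 0.071), Per2 (-0.097 to 0.10), Per3 (-0.099 to 0.10) and Cry1 (-0.11 to 0.078). The array order kept 6 of 12 arrays within 1 rank with the output genes and 5 with Arntl minus Per3. Same-numbered arrays of different groups correlated from -0.73 to 0.41 in their deviations, and from -0.73 to -0.33 between 5-day and 14-day arrays. Differently numbered arrays were not compared, so these values cannot decide whether the numbers pair arrays. With the replicate block 0 genes and 0 members were called, and Per2 stayed at -0.35 at 5 days (limma, adjusted p = 0.565).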

Other observations

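Genes outside the clock that follow acute signals were read on the same arrays. Of 11 glucocorticoid genes tested, 6 were higher and 5 lower at 5 days against chow, with a median of 0.032. The list includes the gene of the receptor, which is not a target. Mt1, which encodes a metallothionein, was 14.31, 14.25, 14.34 and 14.50 on 5-day arrays, against 14.11, 14.00, 14.20 and 14.24 on chow arrays, a difference of 0.22 ± 0.074 (limma, unadjusted p = 0.0137). Pdk4, which encodes a brake on glucose oxidation, differed by 0.34 (unadjusted p = 0.017) and Mt2 by 0.32 (unadjusted p = 0.0384). Klf9 went the other way, by -0.20 (limma, unadjusted p = 0.041), without overlap with chow. In this list 3 were higher and 1 lower at an unadjusted p under 0.05, where 4.43% and 5.67% of all genes were. Of 12 immediate early genes, 7 were higher and 5 lower at 5 days. Ier3 was 9.45, 9.61, 9.63 and 9.52 on 5-day arrays, against 9.85, 10.28, 10.05 and 9.74 on chow arrays, a difference of -0.43 (unadjusted p = 0.0036), and differed by -0.30 at 14 days (unadjusted p = 0.0237). At 14 days against chow, 5 of the 12 were higher and 7 lower. At an unadjusted p under 0.05, 1 was higher and 1 lower, where 3.67% and 4.3% of all genes were. The higher one was Fosb, by 0.39 (limma, unadjusted p = 0.025). Fos differed by -0.53 at 14 days against chow (limma, unadjusted p = 0.0737) and by -0.71 at 14 against 5 days (unadjusted p = 0.0224). None of these genes passed after adjustment over all genes.

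The genes whose log2 signal over the 12 arrays was most like a member's are given as a description, without a test. Abcb1b (r = 0.95), Rhobtb1 (0.93) and Ifih1 (0.93) were most like Per2, and Srsf4 (0.97), Slc38a6 (0.96) and Slc30a1 (0.95) most like Per1. For Per3 they were Lyst (0.96), Lims2 (0.96) and Kctd2 (0.94), for Cry2 Tbl1xr1 (0.96), Ppp4r1 (0.94) and Ccdc50 (0.94), and for Clock Grb2 (0.95), Hcfc1r1 (0.94) and Anapc5 (0.94). Arntl was most like Vmn1r148 (0.92), Eya3 (0.91) and Lce1i (0.90). The most opposite gene was Prkag1 for Cry2 (-0.96), Irgc1 for Per3 (-0.92) and 0610040F04Rik for Clock (-0.93). The highest of 13311 coefficients over 12 arrays is large by the choice itself.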
